A study of Mus musculus with 24 samples.

Results

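The comparison described here sets 3 libraries of βTC3 cells that carry an inducible miR-23b cluster against 3 libraries of βTC3 cells that carry the empty plasmid, all without the inducer. The 6 libraries were picked by their labels alone, out of 24 in the series. βTC3 is a mouse insulinoma line from the Rip-Tag2 model, in which an insulin promoter drives a viral oncogene in beta cells. The miR-23b line carried the plasmid PB-31 with the miR-23b cluster, and the control line carried PB-31 only. Both were kept for 7 d in DMEM without doxycycline (DOX), the drug that switches the insert on. Further groups of 3 libraries were read where they bear on this comparison. They were the miR-23b line with 7 d DOX at 2 µg/ml, the miR-23b line taken off DOX for another 7 d (withdrawn), the miR-137 line without DOX (PB-31 with miR-137), and the control line with 7 d DOX. The sources used here do not say whether a line is a clone or a pool. Cells were plated in triplicate, so the p-values rest on the spread between wells or cultures of the same group, which may be technical. That spread was estimated over all 24 libraries together. Each insert was read in a single line, so the p-values do not cover the spread between lines that carry the same insert.

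The miR-23b, miR-27b and miR-24 hairpins share a single primary transcript, which is cut into hairpins and then into mature miRNAs. A mature miRNA pairs through its seed, the stretch near its 5′ end, mostly with 3′ UTRs, and lowers the level or translation of the mRNA. Inducible promoters can let some transcription through without the drug, and lines kept apart in culture can come to differ for reasons unrelated to the insert. The comparison without DOX reads both of these together. PolyA libraries count reads on hairpin loci within longer transcripts and do not measure mature miRNAs, and reads of the insert cannot be told apart from reads of the cell's own locus.

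The sequences of the cluster that the results turn on are shown as RefSeq gives them on GRCm38.p6. Capitals mark the seed, bases 2 to 8, in the 3 mature miRNAs.
mmu-miR-27b-3p: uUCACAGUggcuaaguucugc
mmu-miR-24-3p: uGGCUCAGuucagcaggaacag
mmu-miR-3074-5p: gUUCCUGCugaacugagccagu
The hairpins of Mir24-1 and Mir3074-1 are shown because they lie on opposite strands of the same place, and capitals mark the mature miRNA in each. All 68 bases of the Mir24-1 hairpin lie within the reverse complement of the 85 bases of the Mir3074-1 hairpin.
Mir24-1 hairpin: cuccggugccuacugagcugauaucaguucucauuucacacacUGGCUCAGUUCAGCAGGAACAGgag
Mir3074-1 hairpin: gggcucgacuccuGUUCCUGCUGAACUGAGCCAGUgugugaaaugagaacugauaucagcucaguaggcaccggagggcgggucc
Mir23b (ENSMUSG00000065599, chromosome 13, 63300484 to 63300557), Mir27b (ENSMUSG00000065475, 63300712 to 63300784) and Mir24-1 (ENSMUSG00000105904, 63301208 to 63301275) lie on the plus strand of GRCm38. They sit inside the host gene 2010111I01Rik. Mir3074-1 lies on the minus strand, at 63301199 to 63301283.

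The 6 libraries held 15759849 to 21804880 reads counted in genes, within the range of 15759849 to 24144737 over all 24. Beta cell markers were high in both lines, with 8 markers summing to 13940 to 14090 CPM (counts scaled to a common library size with TMM) in the miR-23b libraries and 12770 to 13170 in the control libraries. Acinar Cpa1, Amy2b and Prss2, T cell Cd3e and endothelial Cdh5 were at 0 counts in all 6. Other markers of such cells were detected. The 5 acinar markers summed to 0.187 to 0.629 CPM in the miR-23b libraries and 0.318 to 0.649 CPM in the control libraries. The 4 endothelial markers summed to 0.517 to 0.98 CPM and 0.847 to 1.28 CPM, in the same order. The 5 fibroblast markers summed to 2.35 to 2.46 CPM and 2.30 to 3.86 CPM. Reads outside genes made up 9.69%, 9.62% and 9.84% of all reads in the miR-23b libraries, against 10.7%, 10.9% and 10.7% in the control libraries. Reads with more than 1 place made up 27.3% to 27.4%, against 26.6% to 27.1%. These shares did not overlap between the groups (exact permutation test, two-sided, p = 0.1 each, the smallest that 3 against 3 libraries allow). Fold changes were also related to GC content, with a Spearman rho of -0.173 across 14808 genes, which are not independent of each other. The rho was -0.268 for the miR-137 line against the same control libraries, and 0.075 for the miR-23b line against the miR-137 line. The part of these library differences in the results below was not tested beyond the fit with a GC offset named there.

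Without DOX, reads of the cluster were few in the miR-23b line and rarer still in the control line. Mir27b had 7, 12 and 8 reads in the miR-23b libraries, against 0, 0 and 2 in the control libraries. Mir24-1 had 11, 12 and 12 reads in the miR-23b libraries, against 1, 0 and 2 in the control libraries. Mir23b had 1, 5 and 3 reads in the miR-23b libraries, against 1, 1 and 0 in the control libraries. The groups did not overlap for Mir27b and Mir24-1, and for Mir23b the lowest miR-23b library equalled the highest control libraries in reads. In pooled CPM without TMM scaling, Mir27b stood at 0.488 in the miR-23b line and 0.0361 in the control line, a ratio of 13.5 (95% counting interval 3.40 to 117). Mir24-1 stood at 0.632 in the miR-23b line and 0.0541 in the control line, a ratio of 11.7 (3.69 to 59.4). Both passed edgeR's quasi-likelihood test (log2 fold change 3.56, SE 0.71, adjusted p = 0.00142 for Mir27b, and 3.42, SE 0.69, adjusted p = 0.00174 for Mir24-1, n = 3 each). Both calls held with each of the 6 libraries left out in turn. The fold change rested in part on control replicate 3, without which it was 6.30 for Mir27b, whose other control libraries were at 0 so that the fitted value depends on the prior count, and 4.26 for Mir24-1. Mir23b did not pass (log2 fold change 2.01, SE 0.89, adjusted p = 0.186). Intervals and limits on counts of 0 cover counting error only.

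Mir3074-1, read from the minus strand, had 16, 13 and 11 reads in the miR-23b libraries, against 0, 0 and 0 in the control libraries. The 3 miR-137 libraries without DOX were also at 0. The pooled level of 0.723 CPM was 13.4 times a floor of 3 counts over the control group and 14.2 times such a floor over the miR-137 group. The lower 95% counting limits of the ratios to the control and miR-137 lines were 10.4 and 11. The adjusted p was 6.93e-05 by edgeR's quasi-likelihood test. Reads of the minus strand made up 40 of 75 reads at the Mir24-1 and Mir3074-1 loci in the miR-23b line without DOX, or 53.3% (exact 95% interval 41.45% to 64.95%). They made up 10 of 21 (47.6%, 25.7% to 70.2%) in the withdrawn libraries of the same line, and 27 of 6221 (0.434%, 0.286% to 0.631%) with 7 d DOX. The 3 control libraries without DOX held only 3 reads there, all on the plus strand, which leaves a minus-strand share of 0% to 70.8%. The counts separate the strands at this place, since a plus-strand hairpin that lies wholly within a minus-strand one still took 6194 reads with DOX.

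**Figure D1:**
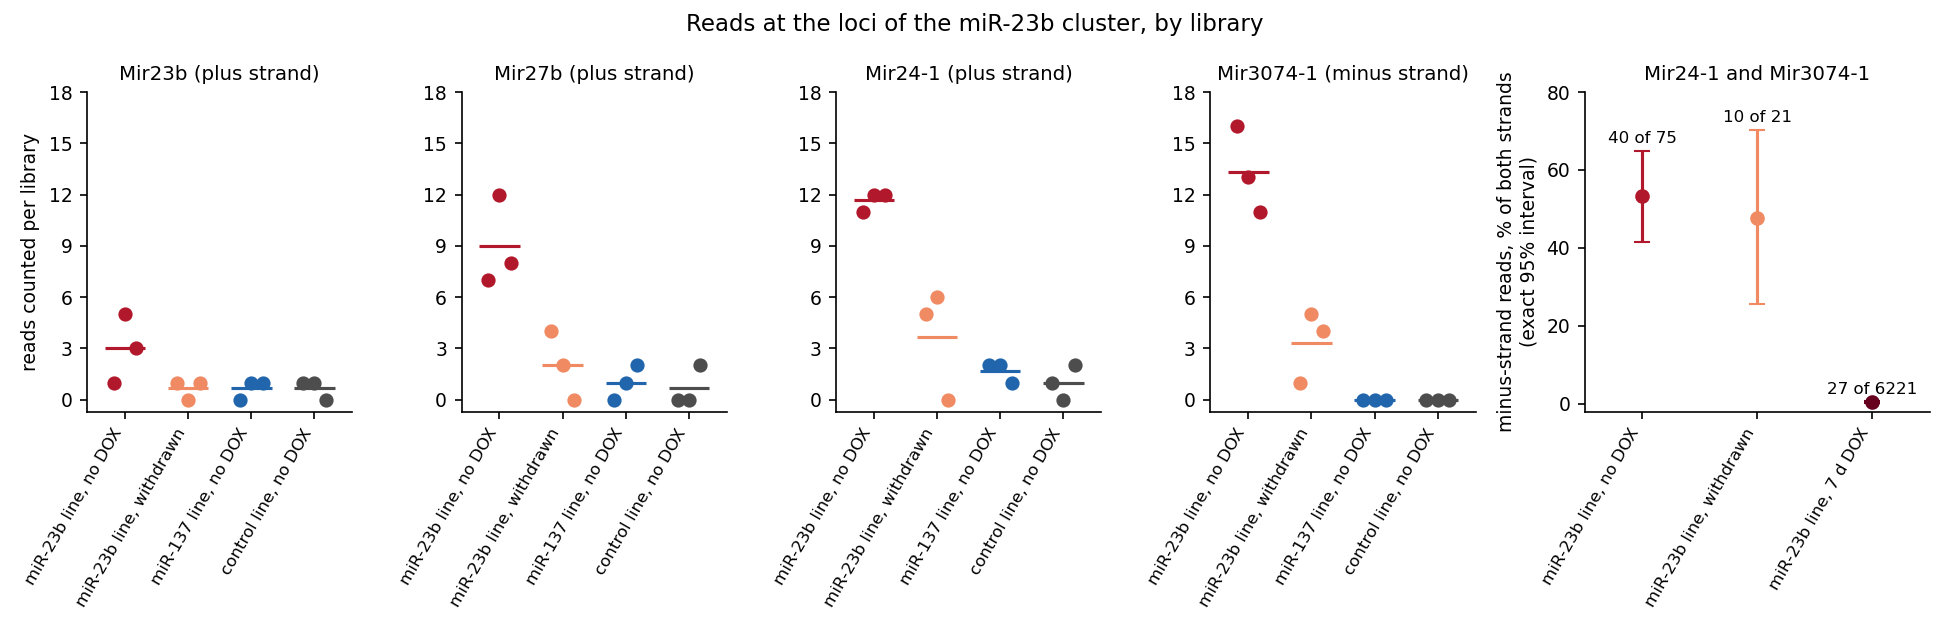
Reads counted per library at 4 loci of the cluster (points, with the group mean as a line) and, at the right, the share of minus-strand reads at Mir24-1 and Mir3074-1 with exact 95% intervals. The miR-23b libraries without DOX hold 11 to 16 reads on the minus strand, where the control and miR-137 libraries without DOX hold 0, and the minus strand takes 53.3% of reads without DOX and 0.434% with 7 d DOX.

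Set against full induction, the level without DOX was low on the plus strand. The miR-23b line without DOX reached 0.306% of its own 7 d DOX level at Mir23b (95% counting interval 0.140% to 0.582%), 0.571% at Mir27b (0.3758% to 0.8315%) and 0.608% at Mir24-1 (0.423% to 0.847%). At Mir3074-1 it stood at 159% of the 7 d DOX level (95.4% to 270%). The host gene 2010111I01Rik, which can make the cluster's transcript from the cell's own locus, had 15.6 pooled CPM in the miR-23b line and 16.9 in the control line (ratio 0.922, 0.839 to 1.01, adjusted p = 0.581). Mir137, the insert of the other line, was at 0 counts in all 6 libraries. It was also at 0 in the 3 miR-137 libraries with 7 d DOX, so counts at Mir137 itself cannot read that insert. Its host transcript Gm26871 had 2.13 pooled CPM in the miR-23b line and 3.19 in the control line and did not pass (adjusted p = 0.0571). It did pass with DESeq2 (0.0474), without the low-count filter (0.0345) and in a fit of the 6 libraries alone (0.0357). Gm26871 did respond in the miR-137 line, with means without TMM scaling of 4.35 CPM without DOX and 123 CPM with 7 d DOX. The control line with DOX averaged 3.59 CPM. Mir7-1, another miRNA locus counted in these libraries, was called lower (log2 fold change -1.48, SE 0.46, adjusted p = 0.0467) at 0.194 ± 0.0881 CPM in the miR-23b line and 0.524 ± 0.0981 in the control line (SD, n = 3 each). That call was lost when any of the 6 libraries was left out (adjusted p 0.0651 to 0.257).

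Across the transcriptome the lines differed in many genes by small amounts. Of 14866 genes tested, 947 (6.37%) passed edgeR's quasi-likelihood test at an adjusted p below 0.05. They were 533 higher (3.59%) and 414 lower (2.78%) in the miR-23b line, and their median difference was 1.15-fold. Only 53 (0.357%) differed by at least 1.5-fold, 28 higher (0.188%) and 25 lower (0.168%). The share of calls that were higher was 56.3% on counts and 33.7% on the deposited TPM values, where limma called 143 genes higher and 281 lower. The count fell to 479 without control replicate 2, 465 without miR-23b replicate 1, 589 without replicate 2 and 624 without replicate 3. On the first principal component of the 9 libraries without DOX (18.9% of the variance), the miR-23b libraries scored 6.66 to 15.1, the miR-137 libraries -1.85 to 4.97 and the control libraries -16.8 to -9.53. Against the miR-137 line, the same 3 miR-23b libraries gave 135 calls (0.908%), 79 higher (0.531%) and 56 lower (0.377%), of which 42.9% were higher on TPM values in place of 58.5%. The miR-137 line gave 402 calls (2.7%) against the control line. These comparisons share libraries, so their values are set side by side below and no overlap is read. By chromosome, the median log2 fold change over the autosomes and X ran from -0.0208 on chromosome 17 to 0.0453 on chromosome 4. Chromosome 4 held 89 higher and 13 lower calls (10.6% of its genes) and X held 40 higher and 10 lower (9.52%), while chromosomes 7, 8, 9, 10, 11, 17 and 19 held more lower than higher calls.

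Among the 15 higher genes with the largest fold changes, Fxyd2, a regulator of the sodium pump, came first. Fxyd2 (ENSMUSG00000059412, chromosome 9, 45399669 to 45410278, plus strand) had 26.6, 25.8 and 29.4 CPM in the miR-23b libraries, against 12.4, 12.9 and 15.1 CPM in the control libraries. The log2 fold change was 1.01 (SE 0.08, adjusted p = 2.54e-10, edgeR, n = 3). The miR-137 line averaged 26.4 ± 1.64 CPM (SD, n = 3), so the control line was the low line of the 3, and the miR-23b line differed from the miR-137 line by 0.05 (SE 0.07). Apob, which encodes the structural protein of low-density lipoprotein, had 143, 138 and 130 CPM in the miR-23b libraries, against 98.9, 92.1 and 90.9 CPM in the control libraries. Its log2 fold change was 0.54 (SE 0.05, adjusted p = 2.05e-09, edgeR), and against the miR-137 line it was 0.02 (SE 0.05). A1cf, an RNA-binding partner in the editing of Apob mRNA, was also higher (0.47, SE 0.06). Homer2, a synaptic scaffold gene (0.60, SE 0.08), and the carboxylesterase gene Ces1d (0.50, SE 0.06) likewise stood close to the miR-137 line, at -0.06 (SE 0.07) and 0.05 (SE 0.06). The translation factor gene Eef1a2, among the 3 higher genes with the smallest p, had 86.0, 88.5 and 87.8 CPM in the miR-23b libraries, against 66.0, 68.9 and 63.6 CPM in the control libraries.

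A few of the 15 set the miR-23b line apart from both other lines. Dnah6, a heavy chain of axonemal dynein (ENSMUSG00000052861, chromosome 6, 73017606 to 73221651, minus strand), had 14.2, 14.9 and 15 CPM in the miR-23b libraries, against 7.79, 7.68 and 8.57 CPM in the control libraries. It rose by 0.88 on the log2 scale over the control line (SE 0.10, adjusted p = 1.12e-07) and by 1.02 over the miR-137 line (SE 0.10, adjusted p = 1.27e-08, both edgeR). Ccnd2, the cyclin of the G1 phase, had 5.75, 4.85 and 4.52 CPM in the miR-23b libraries, against 3.84, 3.11 and 3.44 CPM in the control libraries, with no overlap. It rose by 0.52 over the control line (SE 0.15) and by 0.69 over the miR-137 line (SE 0.15). The cyclin gene Ccnb3 rose by 0.63 (SE 0.10) and 0.45 (SE 0.10). The rest of the 15 were Prodh2 (0.69), a dehydrogenase of hydroxyproline breakdown, the bicarbonate transporter gene Slc4a10 (0.66), the keratin gene Krt90 (0.54), the secreted collagen-repeat gene Cthrc1 (0.50), the thyroid hormone receptor gene Thrb (0.50), Pik3r5 (0.49), a PI3-kinase subunit, and Pet2 (0.47), all called higher over the control line. None of these 7 passed against the miR-137 line (adjusted p 0.111 to 0.62, edgeR), where Cthrc1 stood at -0.23 and the others between 0.14 and 0.35.

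Muc2, which encodes a secreted gel-forming mucin (ENSMUSG00000025515, chromosome 7, 141690340 to 141754693, plus strand), had the largest fall of the 15 lower genes chosen at 5 CPM or more. It had 3.36, 2.47 and 3.26 CPM in the miR-23b libraries, against 6.74, 6.16 and 6.35 CPM in the control libraries. It fell by 1.11 on the log2 scale (SE 0.20, adjusted p = 0.000389), and by 0.93 against the miR-137 line (SE 0.20, adjusted p = 0.00968, both edgeR). Gip, the precursor of an incretin hormone, had 12.7, 11.9 and 11 CPM in the miR-23b libraries, against 19.5, 19.1 and 17.3 CPM in the control libraries, and fell by 0.65 (SE 0.09). The signalling and receptor genes Plekhg4 (-0.72), Sema6a (-0.55), Csf2ra (-0.52), Rgs11 (-0.51), Mcam (-0.50), Gas6 (-0.50) and Chrm4 (-0.50) were lower too. Neat1, the long RNA that builds paraspeckles, averaged 193 ± 18 CPM in the miR-23b line and 280 ± 5.30 CPM in the control line (SD, n = 3 each), a log2 fold change of -0.54. The interferon-linked genes Uba7 (-0.59) and Dhx58 (-0.56), the AP-1 gene Fosb (-0.56), the TGF-beta repressor gene Tgif1 (-0.52) and the synaptic scaffold gene Grid2ip (-0.52) completed the 15. Of these, Rgs11 and Fosb also passed the test against the miR-137 line, by -0.38 (SE 0.08) and -0.34 (SE 0.08). Just outside the 15 in each direction stood Ank3 and Apoe.

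Each of the 30 genes passed the test at 5 CPM or more in the higher group with no overlap between the groups. Overlap was absent in 3766 genes (25.3%) of all tested and in 921 of the 947 called (6.2% of all tested). With any of the 6 libraries left out in turn, 8 of the 30 lost the call at least once. The adjusted p of Cthrc1 was then 0.0514 to 0.103 without any library but control replicate 3, that of Ccnd2 0.0553 to 0.147 without control replicates 2 or 3 or miR-23b replicates 1 or 2, and that of Pik3r5 0.0524 and 0.0705 without control or miR-23b replicate 3. Dhx58 lost it without control replicate 3 or miR-23b replicate 2 (0.122 and 0.102), Mcam without replicate 1 of either line (0.0545 for control and 0.0656 for miR-23b), and Grid2ip without replicate 1 of either line, control replicate 2 or miR-23b replicate 3 (0.106 to 0.174). Gas6 lost it without any library but miR-23b replicate 2 (0.058 to 0.161), and Chrm4 without control replicates 2 or 3 or miR-23b replicates 1 or 2 (0.0512 to 0.159).

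**Figure D2:**
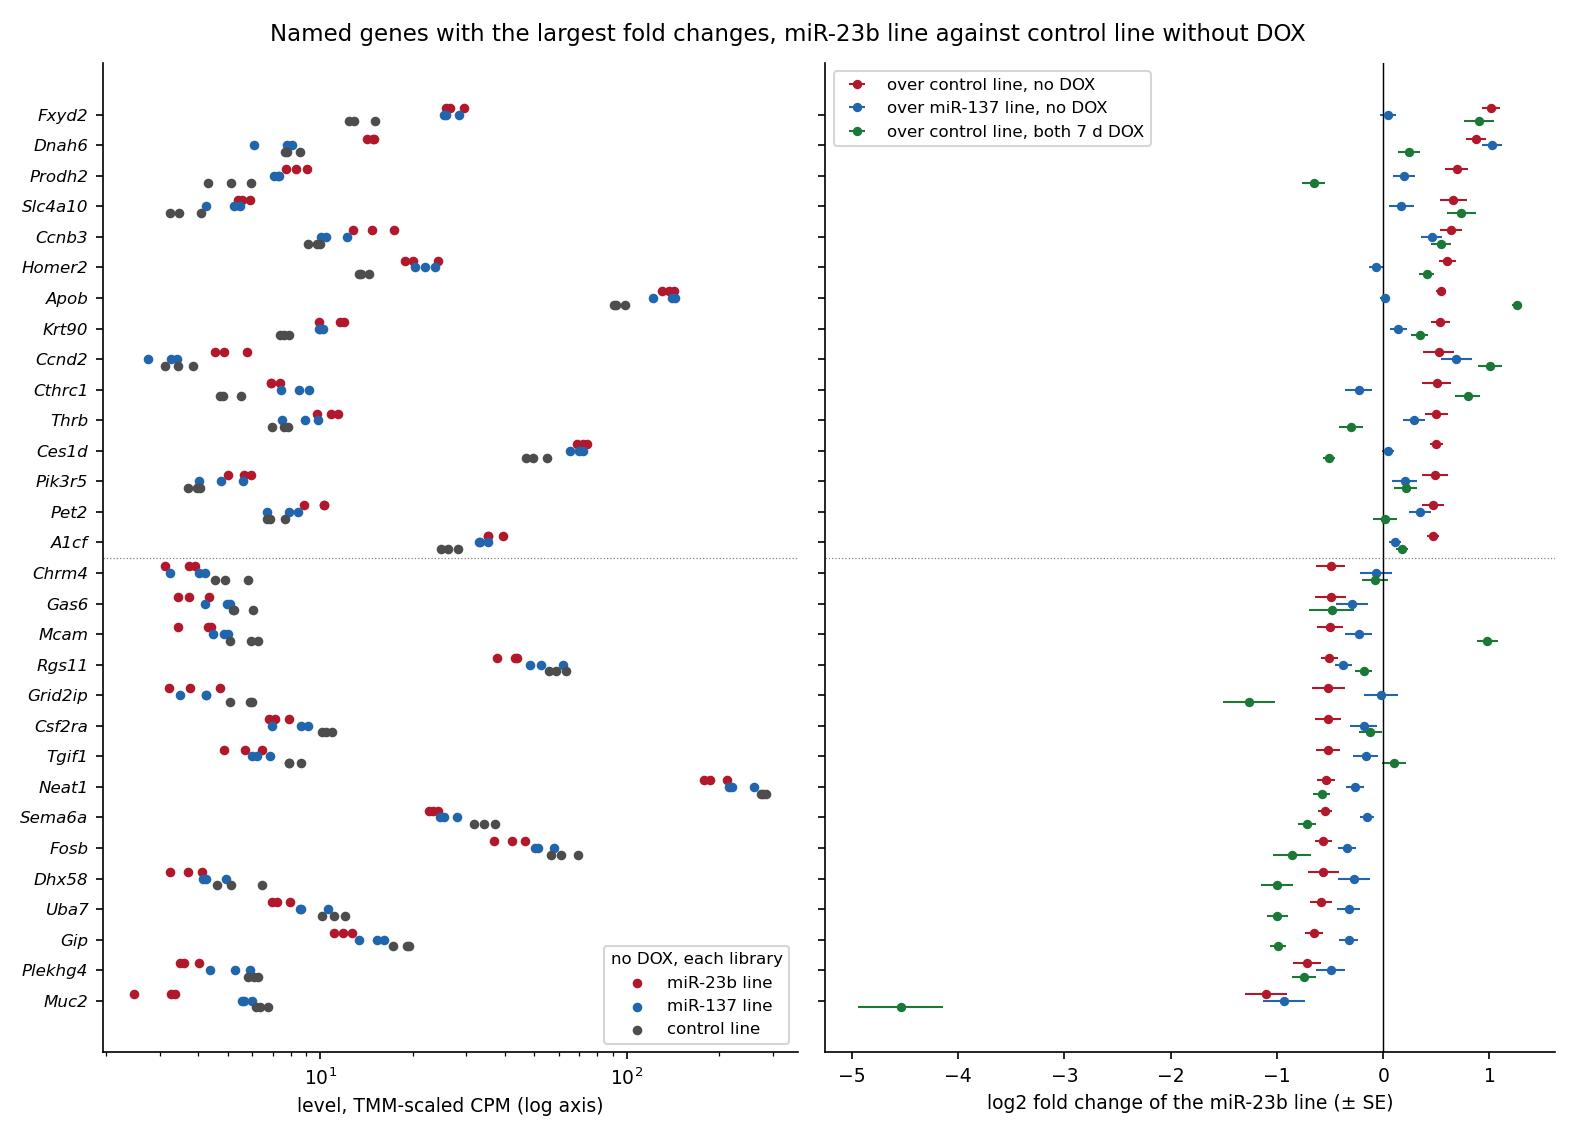
Left, levels of the 30 genes in each library of the 3 lines without DOX, on a log axis of TMM-scaled CPM. Right, log2 fold changes (± SE) of the miR-23b line over the control line without DOX, over the miR-137 line without DOX, and over the control line with both on 7 d DOX. Fxyd2, Homer2, Apob and Ces1d of the miR-23b line lie with the miR-137 line, while Dnah6, Ccnd2 and Muc2 lie apart from both other lines.

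Genes of cholesterol synthesis and uptake moved in the same direction. SREBP2 switches these genes on when sterols are short. Of 25 members tested, 19 rose and 0 fell (76% called higher, against 3.59% of all genes), and all 25 fold changes were positive, with a median of 0.21 on the log2 scale against 0.0049 over all 14866 genes. Hmgcs1, the entry enzyme of the mevalonate pathway, had 217, 202 and 203 CPM in the miR-23b libraries, against 170, 164 and 160 CPM in the control libraries (log2 fold change 0.33, SE 0.04, adjusted p = 4.84e-06, edgeR). Sqle, a rate-limiting monooxygenase, had 222, 219 and 217 CPM in the miR-23b libraries, against 178, 183 and 178 CPM in the control libraries (0.28, SE 0.03). Lss, which closes the sterol ring (0.29, SE 0.03), and Cyp51, a sterol demethylase (0.28, SE 0.04), rose as well. The groups did not overlap in any of these. In 15 alternative fits the count of members called higher ran from 13 to 21, and that of members called lower was 0 in each. Against the miR-137 line 1 member was higher and 0 lower, with a median of 0.08, and Hmgcs1 stood at 0.08 (SE 0.04) and Sqle at 0.09 (SE 0.03) there. The miR-137 libraries held 196 ± 8.69 CPM of Hmgcs1 (SD, n = 3), between the other 2 lines.

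**Figure D3:**
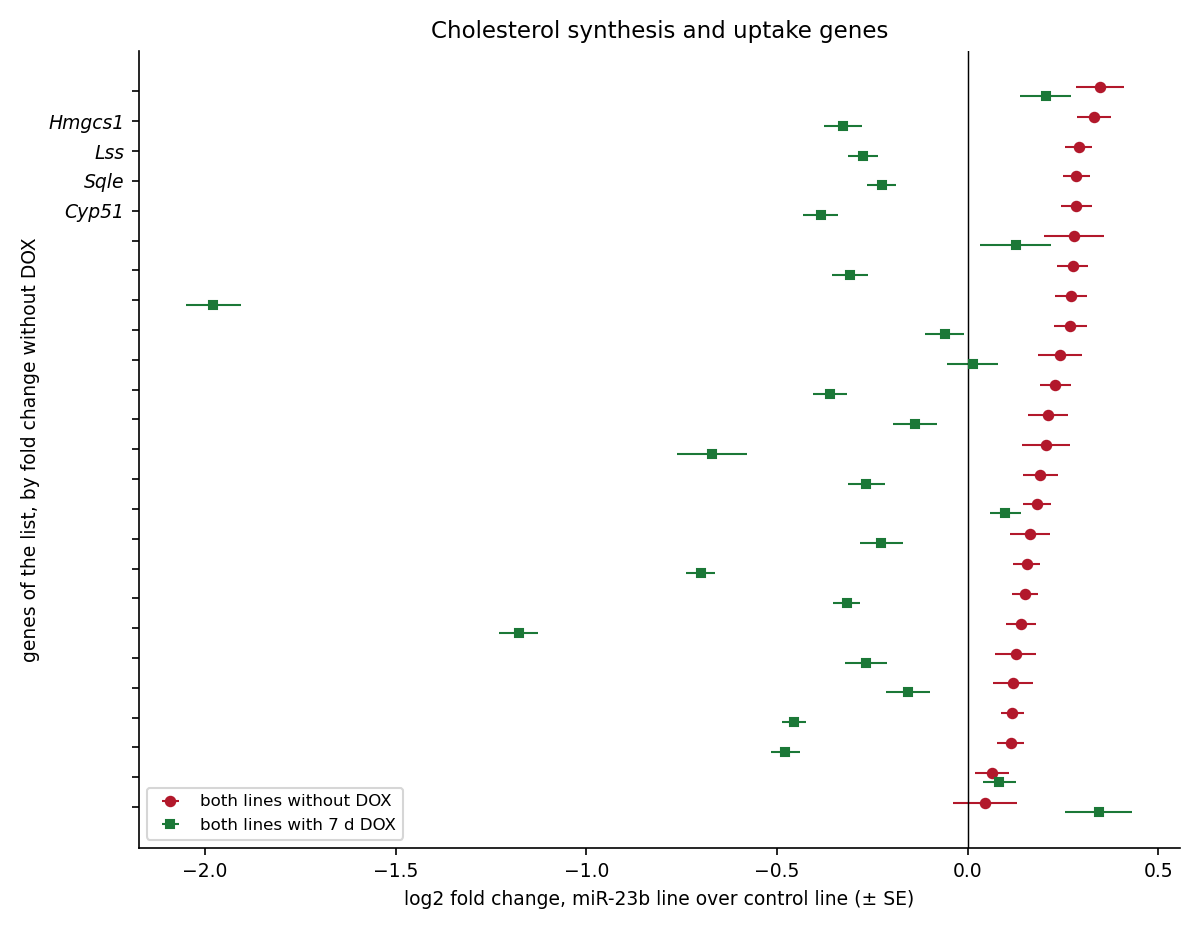
Log2 fold changes (± SE) of the miR-23b line over the control line for 25 genes of cholesterol synthesis and uptake, without DOX (circles) and with 7 d DOX (squares), with names at the 4 genes described. All 25 lie above 0 without DOX, and 18 were called lower with DOX.

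Of 17 fatty acid synthesis genes 6 rose and 1 fell, with a median of 0.08, against 3.59% of all genes called higher and 2.78% lower. The other 10 did not pass. The desaturase genes Scd1 (367, 371 and 363 CPM in the miR-23b libraries, against 308, 314 and 299 CPM in the control libraries) and Scd2 rose by 0.26 (SE 0.05) and 0.17 (SE 0.03), and the elongase gene Elovl6 by 0.38 (SE 0.08). The count of 6 was 3 without control replicate 3 and 2 on the TPM values. Mlxipl, which encodes the glucose-sensing factor ChREBP and belongs to the beta cell list too, fell by 0.35 (SE 0.05), to 477, 490 and 502 CPM in the miR-23b libraries, against 594, 642 and 636 CPM in the control libraries. Of 34 genes of the ATF4 and amino acid supply list, 12 rose, 0 fell and 22 did not pass, with a median of 0.08. The cystine transporter gene Slc7a11 rose by 0.41 (SE 0.08, adjusted p = 0.000721, edgeR), to 15.3, 16.2 and 13.6 CPM in the miR-23b libraries, against 10.8, 12.3 and 11 CPM in the control libraries. The amino acid transporter gene Slc7a5 (0.15, SE 0.03) and the tRNA synthetase genes Iars (0.16, SE 0.03) and Nars (0.16, SE 0.03) rose less. Of the stress factors in the list, Atf4, Ddit3 and Trib3 did not pass, at 0.02, -0.17 and -0.11, and are named here after their values were seen. The count of 12 was 6 without miR-23b replicate 3 and 2 on the TPM values.

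Immediate early genes, many of them for transcription factors, are those that cells switch on within minutes of a stimulus. Of 20 tested, 7 fell and 0 rose, against 2.78% of all genes called lower, with a median of -0.19. The other 13 did not pass, and 5 of the 20 fold changes were positive. Fosb had 37.0, 42.4 and 46.6 CPM in the miR-23b libraries, against 60.8, 69.2 and 56.8 CPM in the control libraries (adjusted p = 2.25e-05). Jun fell by 0.19 (SE 0.04), Junb by 0.29 (SE 0.08) and the phosphatase gene Dusp1 by 0.26 (SE 0.05). Jun also stood lower than in the miR-137 line (-0.23, SE 0.04). The 7 were 4 without control replicate 2 or miR-23b replicate 2, 3 without miR-23b replicate 1, 3 with DESeq2 and on TPM values, and 4 with the GC offset.

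Of 38 genes of the interferon response and antigen display 6 fell and 0 rose, against 2.78% of all genes called lower, with a median of -0.12. The other 32 did not pass, and 7 of the 38 fold changes were positive. B2m, the light chain of MHC class I, had 61.3, 67.4 and 66.1 CPM in the miR-23b libraries, against 80.8, 91.8 and 95.7 CPM in the control libraries (log2 fold change -0.46, SE 0.05, adjusted p = 4.16e-08, edgeR). The heavy chain genes H2-K1 (-0.28, SE 0.04) and H2-D1 (-0.24, SE 0.04) fell with it, as did H2-Q4, among the lower genes with the smallest p (-0.32, SE 0.04). Class I genes are near copies of each other, and reads with more than 1 place were set aside in the counting, so these levels are less certain. Against the miR-137 line, B2m stood at -0.05 (SE 0.05), H2-K1 at -0.02 (SE 0.04) and H2-D1 at 0.00 (SE 0.04), and 0 of 38 members were called. The interferon-induced modifier gene Isg15 (0.04), named after its value was seen, did not pass. The 6 were 3 without control replicate 3. Markers of leukocytes, which can carry these genes into a culture, summed to 1.81 to 2.17 CPM in the miR-23b libraries and 2.80 to 3.33 CPM in the control libraries. Most of that was Cd68, at a mean of 1.93 CPM in the miR-23b line and 3.02 CPM in the control line. Ptprc averaged 0 and 0.034 CPM and Csf1r 0.022 and 0 CPM, in the same order, and Cd3e was at 0. Cd68 fell by 0.64 (SE 0.18). That call was lost with DESeq2 (adjusted p = 0.0628) and without control replicates 2 or 3 or miR-23b replicates 1 or 2 (0.0681 to 0.0947, edgeR). The part of leukocytes in the result was not tested, and in bulk RNA fewer cells of a type and less RNA per cell cannot be told apart.

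Of 36 genes of beta cell identity and secretion 2 rose and 4 fell, a called share of 16.7% against 6.37% of all genes, with a median of -0.0086. Ins2, an insulin gene, averaged 7839 ± 57.4 CPM in the miR-23b line and 7023 ± 195 CPM in the control line (SD, n = 3 each), a log2 fold change of 0.16 (SE 0.03) that did not pass on TPM values (adjusted p = 0.125). Scg2, a granin of the secretory granule, rose by 0.17 (SE 0.03). Rfx6, an islet transcription factor gene, fell by 0.19 (SE 0.04), and the incretin receptor gene Gipr, named after its value was seen, by 0.20 (SE 0.06). The 4 were 2 without control replicates 1 or 2 or miR-23b replicates 1 or 2. Of 11 other hormone genes tested, Gip fell, while prodynorphin (Pdyn, 0.40, SE 0.10) and proglucagon (Gcg, 0.34, SE 0.10) rose. Pdyn had 29.5, 21.2 and 28.3 CPM in the miR-23b libraries, against 21.9, 18.9 and 18.2 CPM in the control libraries. The second miR-23b library lay below the highest control library, so the groups overlapped. Both calls were lost without control replicates 2 or 3 or miR-23b replicate 1, Pdyn's also without miR-23b replicate 3 and Gcg's without miR-23b replicate 2 (adjusted p 0.0588 to 0.223).

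In the other lists the called share ran from 0 to well above the 6.37% of all genes. Of 39 neuronal and exocytosis genes 7 rose and 1 fell (20.5% called), among them Dcx, a microtubule protein gene (0.22, SE 0.04), and the synaptotagmin genes Syt11 (0.18) and Syt4 (0.19). The 7 were 3 without control replicate 2 and on TPM values, and 4 without control replicate 3 or miR-23b replicates 1 or 3. Of 31 glycolysis and hypoxia genes 4 fell and 0 rose (12.9% called), with a median of -0.12. They were Pgk1 (-0.32, SE 0.08), Egln3 (-0.34), Eno2 (-0.24) and Vegfa (-0.17). That count was 13 without the low-count filter, 12 in a fit of the 6 libraries alone, 1 with DESeq2 and on TPM values, and 2 without control replicate 2 or miR-23b replicates 1 or 2. Of 15 heat shock chaperone genes 4 rose (26.7% called), such as Hsp90ab1 (0.13), and of 22 chaperone genes of the endoplasmic reticulum 4 rose (18.2% called), such as Canx (0.13). Leaving out 1 library brought these down to as few as 1 and 0. Of 24 genes of the IGF2 axis and imprinted loci 1 rose and 2 fell, with a median of 0.04. The higher one was Igf2r, the receptor gene that clears IGF2 (0.12, SE 0.03), a call lost without control replicate 3 (adjusted p = 0.0517) and on TPM values (0.143). The imprinted long RNA Meg3 fell by 0.28 (SE 0.06) against both the control and the miR-137 line, and the imprinted gene Zim1 by 0.22 (SE 0.05) against the control line. In 3 lists of cell growth, 1 gene (Ccnd2) rose and 2 fell of 35 for G1/S, 0 rose and 1 fell of 39 for G2/M, and 0 of 26 p53 targets were called by edgeR or DESeq2, with 5 at an unadjusted p below 0.05. Cytosolic ribosomal proteins (38), clustered protocadherins (19), mitochondrially encoded genes (7) and miRNA processing genes (20) held 0 calls by edgeR and by DESeq2, against 6.37% of all genes called by edgeR, and 2, 3, 2 and 7 of them in that order had an unadjusted p below 0.05. Without the low-count filter 3 mitochondrially encoded genes were called higher and 1 ribosomal gene lower. Mesenchymal (10), fibroblast (1) and endothelial (3) genes held 0 calls by either tool, with 3, 0 and 1 at an unadjusted p below 0.05. Of 30 genes of TGF-beta signalling 2 rose and 1 fell, of 26 of NOTCH and WNT 1 rose and 1 fell, and of 17 islet progenitor genes 1 rose and 1 fell. In 4 further lists only higher calls were made by edgeR, namely 2 of 48 nuclear respiratory chain genes, 1 of 25 adhesion genes, 1 of 6 epithelial genes and 1 of 6 acinar and ductal genes, while of 21 genes of Rip-Tag2 tumours Eno2 alone was called, lower.

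**Figure D4:**
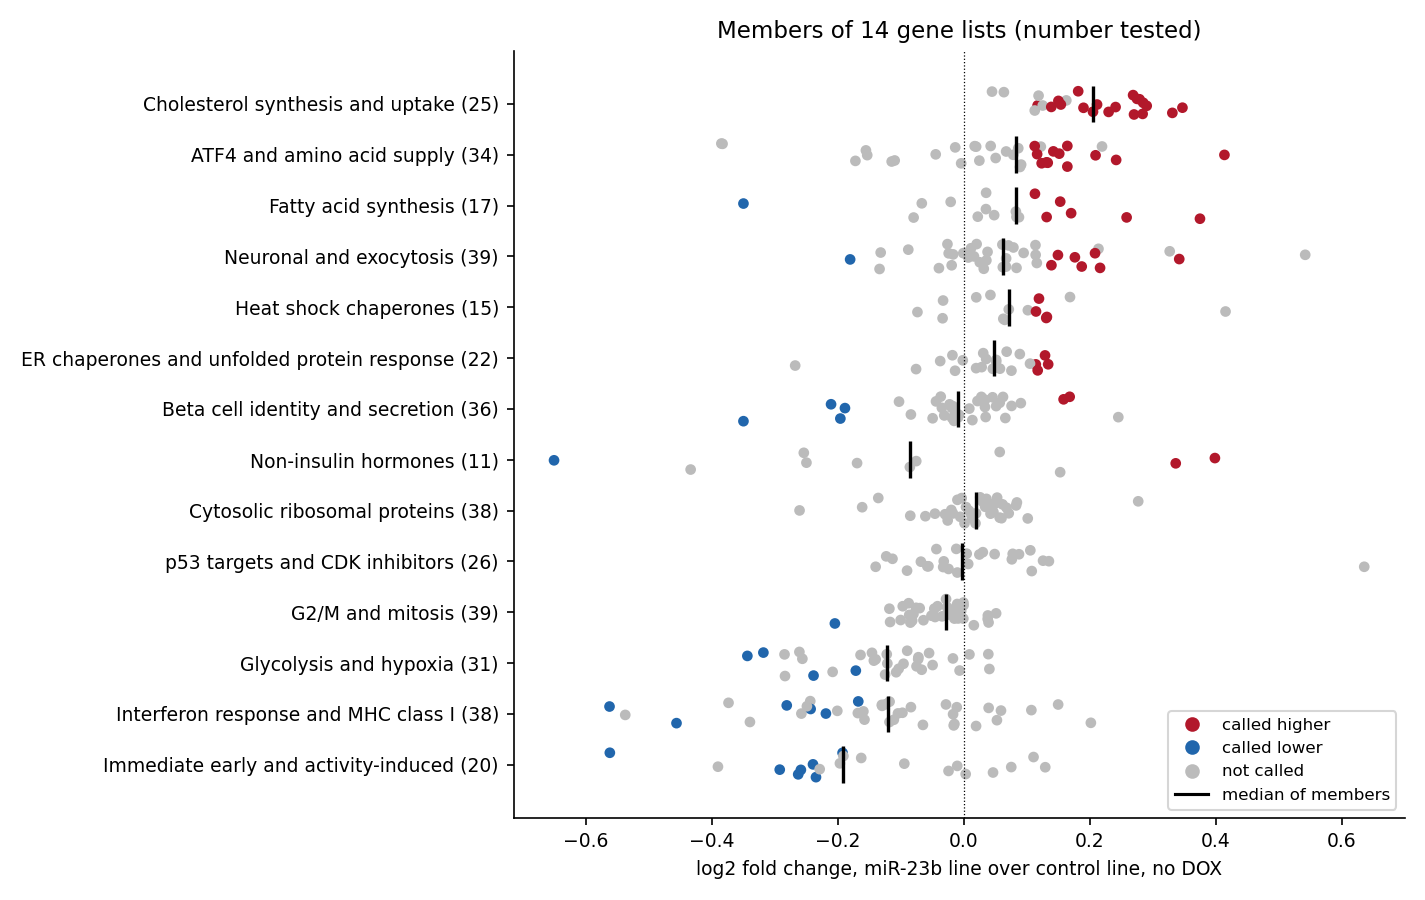
Log2 fold changes of the miR-23b line over the control line without DOX for the tested members of 14 gene lists, with calls in color and the median of each list as a bar. Cholesterol genes lie to the right of 0 with 19 of 25 called, while the immediate early, interferon and glycolysis lists have medians of -0.19, -0.12 and -0.12.

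Genes with a seed site for miR-27b-3p or miR-24-3p differed from the rest by less than 0.01 on the log2 scale without DOX. Sites of miR-23b-3p were not searched, since its mature sequence was missing from the reference used, so the cluster is covered only in part. A seed site was a match to ACTGTGA for miR-27b-3p or CTGAGCC for miR-24-3p, on the sense strand of the longest annotated 3′ UTR, in 13000 tested genes. Sites of miR-27b-3p were found in 2524 genes (19.4%). Their median log2 fold change was 0.0136, against 0.0046 for genes without a site, and 2.06% of them were called lower, against 3.13% of genes without a site. Sites of miR-24-3p were found in 2787 genes (21.4%), with medians of 0.0013 and 0.0085 and called-lower shares of 3.41% and 2.79%. The difference between the medians was 0.0090 for miR-27b-3p and -0.0072 for miR-24-3p. A median over the genes with a site was also taken in each miR-23b library, against the control mean. Its SD over the 3 libraries was 0.0057 for miR-27b-3p and 0.0019 for miR-24-3p. This SD leaves out the genes without a site and the spread of the control libraries. The difference for miR-24-3p ran from -0.0127 without control replicate 3 to -0.00061 without control replicate 1, and was -0.0048 without miR-23b replicate 2. With both lines on DOX, the same genes had medians of -0.0046 with a site and 0.0057 without one for miR-27b-3p, and of -0.0072 and 0.0066 for miR-24-3p. For the narrower class of 8mer sites (the match followed by A), the medians with DOX were -0.0480 with a site and 0.0069 without one for miR-27b-3p, and -0.0224 and 0.0062 for miR-24-3p. Without DOX they were 0.0149 and 0.0057 for 8mer sites of miR-27b-3p, and 0.0016 and 0.0073 for those of miR-24-3p.

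Of 40 tested genes that have been reported as targets of miR-23b, miR-27b or miR-24, 3 rose and 3 fell without DOX. The called share was 15% against 6.37% of all genes, with a median of 0.01. Sema6a fell by 0.55 (SE 0.07), with 22.6, 24.2 and 23.4 CPM in the miR-23b libraries, against 31.8, 37.1 and 34.2 CPM in the control libraries. It stood at -0.15 (SE 0.07) against the miR-137 line. Cbx7, a Polycomb reader gene, fell by 0.25 (SE 0.05), and the forkhead factor gene Foxo1 by 0.17 (SE 0.05). Among the higher ones the spermidine synthase gene Srm rose by 0.22 (SE 0.04). Foxo1 is named after its value was seen, and the 3 higher were 1 without control replicate 3. Foxo1 and Srm carry a site of miR-27b-3p, shown here on GRCm38 because both were called. Capitals mark the match to the seed, and Foxo1 fell while Srm rose.
Foxo1, chr3:52347384-52347405, plus strand: ctcttttgtaatACTGTGAtgg
Srm, chr4:148594308-148594328, plus strand: atccaggtgccACTGTGAcac
A match describes the letters of the UTR and is no evidence of binding. With both lines on DOX, 7 of the 40 were higher and 21 lower, where 25.9% of all genes were higher and 26.3% lower.

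The same 2 lines were compared again in other libraries, with 7 d DOX, where 7764 genes (52.2%) were called, 25.9% higher and 26.3% lower. Of these calls 49.5% were higher, and 64.0% on TPM values. Of the 947 genes called without DOX, 64.9% had the same direction there, against 55.3% of all genes tested. Of the 533 called higher without DOX, 46.7% were called higher and 25.3% lower with DOX. Of the 414 called lower, 46.6% were called lower and 14.7% higher. Among the 15 named higher genes 9 were called higher and 3 lower with DOX, and among the 15 named lower genes 9 were called lower and 1 higher. Fxyd2 was higher in both conditions (0.90, SE 0.14 with DOX), Apob more so with DOX (1.25, SE 0.05), and Muc2 fell by 4.54 with DOX (SE 0.40), to 0.171 CPM in the miR-23b line, against 3.96 CPM in the control line.

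Cholesterol genes stood the other way round with DOX, where 3 of 25 were higher and 18 lower. The change of the line difference with DOX, tested as an interaction added after the data were seen, was called lower in 20 of 25 and higher in 1. Hmgcs1 had 78.4 CPM in the miR-23b line and 98.6 CPM in the control line with DOX, and 208 CPM and 165 CPM without it (interaction -0.66, SE 0.07, adjusted p = 3.15e-10, edgeR). ATF4 targets were 13 higher and 16 lower of 34 with DOX. The interferon list had 1 higher and 29 lower of 38 with DOX, and the immediate early list 2 higher and 12 lower of 20, beside 25.9% higher and 26.3% lower over all genes. The interaction was called higher in 3 and lower in 22 of the 38, and higher in 2 and lower in 7 of the 20. The share of all genes with a called interaction was not counted. The interaction counts of these lists and of the cholesterol list are therefore not read as particular to them. The interaction also uses the libraries without DOX, so it is not independent of the calls made there. Dusp1, lower without DOX, was higher with it (0.31). Induction read within the miR-23b line, as 7 d DOX against withdrawn libraries, shares no library with the comparison without DOX either, and called 52.2% of genes (25.8% higher, 26.4% lower). These groups also differ in the drug itself and in days of culture, so the comparison does not read the cluster alone. There 40.2% of the 947 genes had the direction seen without DOX, against 47.2% of all genes. Of the 533 called higher without DOX, 138 were higher and 250 lower with 7 d DOX than after withdrawal, and of the 414 called lower, 145 were higher and 97 lower.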

How the data were processed

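PolyA RNA was sequenced from stranded libraries, per the labels' protocols. The deposited files hold raw counts per gene, and per the submitters' processing notes the builds were GRCm38 and mm10 and the tools RSEM 1.2.19, featureCounts, HTSeq 0.6.1, STAR 2.4.0g and cutadapt 1.3. No source used here says which tool made each file or its strand setting. A second table, scaled by the authors, was read as TPM since its columns sum to 999999.3 to 1000001.3, and it lists the cluster's loci at 0, so it served as an alternative only. Of 46517 gene entries, 46005 had a GENCODE M21 symbol. The 5 rows that name no gene, such as reads outside genes (9.62% to 12.1% of reads), were left out.

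All 24 libraries were fitted in edgeR 4.0.16 (R 4.3.3) with TMM, filterByExpr defaults (14866 genes) and 8 group means, tested by quasi-likelihood F test with Benjamini-Hochberg adjustment within each of 5 comparisons, and called at an adjusted p below 0.05. The interaction with DOX and the GC offset were added after the data were seen. Errors are SE of log2 fold changes and SD of levels. On simulated counts of 14772 genes, the fit recovered 70% of genes changed 1.2-fold and 98% of those changed 1.5-fold, and called 12 unchanged genes. The changed genes were drawn from well-expressed genes only, and their simulated spread was set by expression level alone. These rates therefore do not cover genes with few reads, such as the cluster loci. Alternatives were RLE scaling, DESeq2 1.42.0, limma 3.58.1 on log2(TPM + 1), 2 other filters, a replicate block, a GC offset, the 6 libraries alone and leaving out each library.

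The samples, the 34 gene lists and the rules were chosen with earlier results of these data known. Named were the 15 genes with the largest fold change in each direction among those called, with at least 5 CPM in the higher group, no overlap and a gene symbol other than a clone or predicted name, which 483 higher and 354 lower genes met. To these came the 3 with the smallest p in each direction, the cluster loci, and up to 4 called members of each list. Some single genes that met the rule are not reported here.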

Additional observations from a re-analysis of the deposited data

Results flagged for a closer look

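The difference between the miR-23b and control lines changed with DOX in 15 of the 30 genes named for their fold change and in the 4 cholesterol genes named, by a test of the difference with 7 d DOX minus that without DOX (edgeR quasi-likelihood test of the interaction, added after the data were seen, adjusted p below 0.05 over all genes). These genes were picked for their difference without DOX, and the interaction uses the same libraries. A difference nearer to 0 or reversed with DOX is therefore partly built into the choice. The share of all genes with a called interaction was not counted. In 4 of the 30 genes the line difference was called in opposite directions. Prodh2, Ces1d and Thrb were higher in the miR-23b line without DOX and lower with it, with interactions of -1.35, -1.01 and -0.80 on the log2 scale. Ces1d averaged 48.7 CPM in the miR-23b line and 69.7 CPM in the control line with DOX, and at 71.6 and 50.3 CPM without it. Mcam was lower without DOX and higher with it (1.48), at 9.47 CPM in the miR-23b line and 4.81 CPM in the control line with DOX, and 4.03 and 5.74 CPM without it.

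The cholesterol genes Hmgcs1 (-0.66), Cyp51 (-0.67), Lss (-0.57) and Sqle (-0.51) were likewise higher without DOX and lower with it. The difference grew with DOX in Muc2 (-3.43), Grid2ip (-0.75), Uba7 (-0.41), Gip (-0.34), Apob (0.71) and Ccnd2 (0.49). It was nearer to 0 with DOX in Dnah6 (-0.63), Pet2 (-0.45), A1cf (-0.29), Tgif1 (0.63) and Rgs11 (0.32). No date, plate or run is labelled, so DOX and a batch shared by the DOX libraries cannot be told apart.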

How the results depend on the processing

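Of the calls between the miR-23b and control lines, 533 were higher and 414 lower. These were 544 and 403 with RLE scaling, 455 and 263 with DESeq2, 963 in all without the low-count filter, 47.35% of them higher, 665 and 361 with the GC offset, 591 and 616 in the 6 libraries alone, and 143 and 281 on TPM values. With a library left out they ran from 252 to 367 and from 212 to 320. The 135 calls against the miR-137 line were 255 without the filter, 28 on TPM values, 227 with the GC offset and replicate block, and 70 to 99 with a library left out. The 402 calls of the miR-137 line against the control line were 152 on TPM values and 170 to 294 with a library left out. Of the 53 genes at 1.5-fold, 20 reached 2-fold, and the count was 30 with DESeq2, 16 at a minimum of 5 CPM in 3 libraries and 12 on TPM values. Mir27b, Mir24-1 and Mir3074-1 are listed at 0 in the TPM table, which gives a log2 difference of 0.0. The difference of medians for miR-27b-3p sites was 0.00087 without the filter, -0.0012 with the GC offset and -0.0013 with the block added, and 0.0061 to 0.0099 with a library left out. For miR-24-3p it was -0.0147 over whole transcripts, 0.0 without the filter, and -0.0127 to -0.00061 with a library left out. Of 1478 values for 99 named genes under 15 settings, 1281 kept their call and direction, 194 lost the call, 3 gained it and 0 turned round, and 43 of the losses were on TPM values. The cause of these shifts was not tested.

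Libraries with the same replicate number share little, with correlations of their deviations of 0.0641, 0.0726 and 0.0371 for the 3 numbers, and the labels do not say that a number marks a batch. The replicate block gave 614 higher and 513 lower calls, with no call of a named gene lost. Each library correlated best with its own number, which is a hint from the data and not from the design.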
